A study of Mus musculus with 10 samples.

Results

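Focal adhesions are the sites at which integrins, the receptors that bind the extracellular matrix, are joined to actin filaments inside the cell. Talins and kindlins bind the cytoplasmic tails of integrin β subunits and switch the receptors on, and a complex of integrin-linked kinase, PINCH and parvin links the tails to actin. Vinculin and zyxin are recruited as force on the adhesion rises, and paxillin and focal adhesion kinase (FAK) form the signaling platform. In muscle the same proteins are found at costameres and at the ends of the fiber.

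The expression of 10 genes of these adhesions was examined in C2C12 cells, a mouse myoblast line whose cells fuse into myotubes when the serum is lowered. The genes were taken by symbol from the authors' table of 55359 genes, and all 10 were found in it and were expressed highly enough to be tested. They encode the integrin activators talin 1 (*Tln1*), talin 2 (*Tln2*) and kindlin-2 (*Fermt2*), the ILK complex (*Ilk*, *Lims1* for PINCH1 and *Parva* for α-parvin), the actin linkers vinculin (*Vcl*) and zyxin (*Zyx*), the scaffold paxillin (*Pxn*) and FAK (*Ptk2*). Cells had been transfected with 100 nM of a control siRNA (si-Control) or of an siRNA against *Fndc1* (si-*Fndc1*), and each group had 5 libraries, which the labels place at day 4 of differentiation with horse serum. All libraries came from 1 cell line, and no label says that the 5 libraries of a group were separate cultures, so p-values measure the spread between these libraries. The study placed the secreted FNDC1 upstream of an integrin and FAK, and the comparison asks whether the transcripts of the adhesion proteins differed when *Fndc1* was lowered.

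*Fndc1* itself had 27.8 ± 2.04 FPKM in si-Control and 20.9 ± 1.70 FPKM in si-*Fndc1* (SD, n = 5 each), with every si-*Fndc1* library below every si-Control library (log2 difference -0.40, SE 0.07, edgeR adjusted p = 0.000934). The correction for GC content and length described below reduced the log2 difference to -0.22 (edgeR adjusted p = 0.0104). FPKM scales the fragments of a gene to a length assigned to the gene and to the depth of the library. The libraries held 56332844 to 75995168 counted reads, and each member had at least 4238 reads in every library. All 13 muscle markers examined were expressed in both groups, *Acta1* the most, with a summed level of 3698.8 to 4138.5 FPKM in si-Control and 3529.5 to 4261.0 FPKM in si-*Fndc1*. Of these markers 4 were higher and 2 lower in si-*Fndc1* (edgeR), and 7 were not called, where 17.3% of all tested genes were higher and 17.2% lower. A list of 17 hepatocyte transcripts did not overlap between the groups: its summed level was 0.169 to 6.75 FPKM in si-Control and 60.0 to 198.5 FPKM in si-*Fndc1*, all 15 tested genes of the list were higher, and albumin, the most abundant, reached 60.8 FPKM. Each of the 17 genes had reads in at least 1 library of both groups. The lists of blood, adipocyte, endothelial and epithelial transcripts stayed at summed levels of at most 3.14 FPKM. The part of the hepatocyte transcripts in the results below was not tested, and in bulk RNA fewer cells of a type and less RNA per cell cannot be told apart.

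Of the 10 genes, 4 were lower in si-*Fndc1* than in si-Control at an adjusted p-value under 0.05: *Pxn*, *Tln2*, *Tln1* and *Parva* (edgeR's quasi-likelihood test, Benjamini-Hochberg adjustment over 13548 genes). None was higher, either in edgeR or in DESeq2, and none had a higher level at an unadjusted p-value under 0.05 (0 genes). *Fermt2*, *Ilk*, *Lims1*, *Vcl*, *Zyx* and *Ptk2* were not called. Among all tested genes 34.4% were called, 17.3% as higher and 17.2% as lower, so that calls were common in this comparison. The median log2 fold change was -0.11 over the 10 genes and 0.00 over all tested genes. In counts scaled to library size (CPM), the same 4 genes lay lower in each si-*Fndc1* library than in any si-Control library, which was true of 12.3% of all tested genes, and of 25.1% in either direction.

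The fold changes of these libraries moved with base composition and, with a smaller correlation, with length. Across 11185 genes with a known GC content, the 3728 genes of lowest GC content had a median log2 fold change of 0.13 and the 3728 of highest GC content one of -0.15 (Spearman -0.523; genes are not independent replicates). The GC content of the 10 genes ran from 40.7% in *Lims1* to 58.0% in *Pxn*. The Spearman correlation of the fold changes with length, as implied by the counts and the FPKM values, was -0.196. Both trends were removed together, and their parts were not separated. Fitting and removing the trend of each library's counts with GC content and length, called the GC offset below, ended all 4 calls. With it 1 of the 10 genes was called, *Ptk2*, which was higher, against 22.7% of all genes tested in that fit, 11.3% as higher and 11.4% as lower. No member was called as lower with the offset by edgeR. At an unadjusted p-value under 0.05, 1 was lower (*Parva*) and 2 were higher (*Ptk2* and *Tln1*) in that fit. DESeq2 was not run with the offset.

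**Figure D1:**
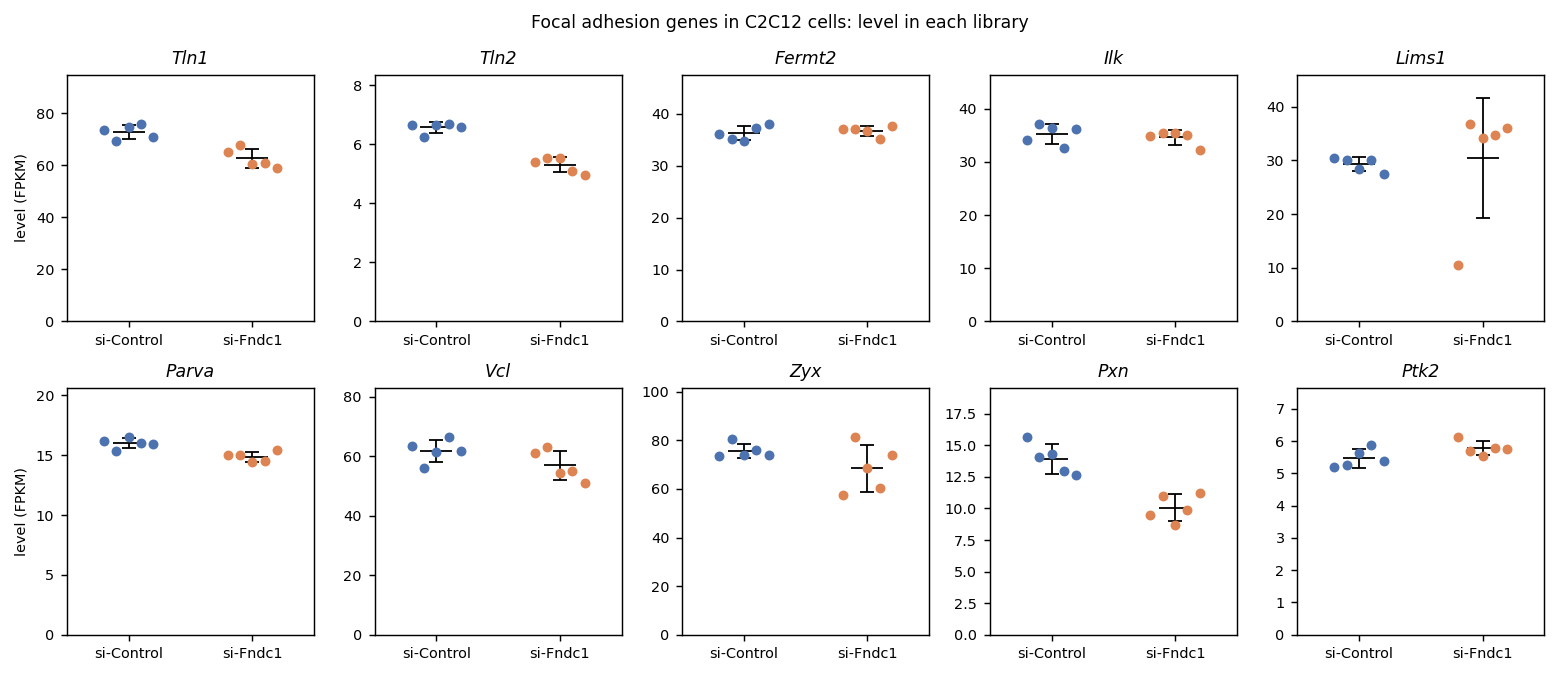
Level of each gene in FPKM (vertical axes, from 0) in the 5 si-Control and 5 si-*Fndc1* libraries (points), with the group mean and SD (bars). The groups separate for *Tln1*, *Tln2* and *Pxn*, nearly so for *Parva*, and 1 si-*Fndc1* library of *Lims1* stands at 10.6 FPKM, far below the other 4.

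Talin 1 is the main talin of most cells, and talin 2 is the form enriched in striated muscle. *Tln1* (ENSMUSG00000028465, placed by the table on the minus strand of chromosome 4, 43531519 to 43562691) had 73.5, 69.3, 74.5, 75.8 and 70.9 FPKM in the si-Control libraries, in the order of their numbers, and 65.0, 67.6, 60.5, 61.0 and 58.8 FPKM in the si-*Fndc1* libraries. Its highest si-*Fndc1* library was below its lowest si-Control library. The log2 difference was -0.21 (SE 0.04, edgeR adjusted p = 0.00376). With the GC offset it was 0.06 (edgeR adjusted p = 0.114), of the opposite sign.

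*Tln2* (ENSMUSG00000052698, chromosome 9 from 67127936 to 67446674, minus strand) was expressed at a lower level per length, with 6.66, 6.26, 6.67, 6.69 and 6.59 FPKM in si-Control and 5.41, 5.53, 5.53, 5.10 and 4.97 FPKM in si-*Fndc1*. The groups did not overlap. Its mean level fell by 19.3%, and the log2 difference was -0.30 (SE 0.04, edgeR adjusted p = 0.000254). It was -0.02 with the GC offset (edgeR adjusted p = 0.648).

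*Fermt2* (ENSMUSG00000037712, chromosome 14 from 45696252 to 45767575, minus strand), which encodes the kindlin of most solid tissues, had 34.8 to 38.1 FPKM in si-Control and 35.1 to 37.7 FPKM in si-*Fndc1*. The groups overlapped almost completely. The log2 fold change of 0.03 had a 95% interval from -0.04 to 0.10 (edgeR adjusted p = 0.557). With the GC offset the sign turned, to -0.06 (edgeR adjusted p = 0.183). Of the kindlin relatives, *Fermt3*, the form of blood cells, had at most 32 reads in a library, and *Fermt1*, the epithelial form, had 0 reads in all.

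Integrin-linked kinase is a pseudokinase that holds PINCH and α-parvin together. *Ilk* (ENSMUSG00000030890, chromosome 7 from 105385799 to 105392132, plus strand) had 34.1, 37.1, 36.3, 32.6 and 36.2 FPKM in si-Control and 34.8, 35.4, 35.5, 35.1 and 32.2 FPKM in si-*Fndc1*. The ranges overlapped, and the log2 difference was -0.02 (95% interval -0.12 to 0.08, edgeR adjusted p = 0.778). With the GC offset it was 0.04, of the opposite sign (edgeR adjusted p = 0.513). *Ilk* overlaps *Taf10* over 3533 bases and *Rrp8* over 794 bases on the opposite strand. Whether the authors counted by strand is not stated, and without it the reads of such partners cannot be told apart.

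*Parva* (ENSMUSG00000030770, chromosome 7 from 112026712 to 112190899, plus strand) encodes α-parvin, the actin-binding arm of the complex. It had 16.2, 15.4, 16.5, 16.0 and 16.0 FPKM in si-Control and 15.0, 15.0, 14.4, 14.5 and 15.4 FPKM in si-*Fndc1*. The highest si-*Fndc1* library and the lowest si-Control library were nearly equal, with 173.4 and 174.0 CPM. *Parva* had the smallest spread of the 10 genes in si-Control, with a coefficient of variation of 2.60%. Its change was also the smallest of the 4 called, with a log2 fold change of -0.10 (SE 0.03, edgeR adjusted p = 0.0170). With the GC offset it was -0.07 (95% interval -0.13 to -0.01, edgeR adjusted p = 0.0922).

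*Lims1* (ENSMUSG00000019920, chromosome 10 from 58159288 to 58260513, plus strand) encodes PINCH1, an adaptor made of LIM domains that binds the kinase. It was measured at 30.5, 30.1, 28.3, 30.0 and 27.4 FPKM in si-Control and at 10.6, 36.8, 34.2, 34.6 and 35.9 FPKM in si-*Fndc1*. Thus 4 si-*Fndc1* libraries were above every si-Control library, and si-*Fndc1* library 1, with 4270 reads against 11529 to 15355 in the other 4, was below all. Over all 5 libraries the log2 difference was 0.06 (SE 0.27, edgeR adjusted p = 0.875), and -0.14 with the GC offset (edgeR adjusted p = 0.748). Si-*Fndc1* library 1, the library with the lowest *Lims1*, was left out in 1 of the 10 fits that each omit a library. There the log2 difference was necessarily higher, at 0.28 (SE 0.04, edgeR adjusted p = 0.000734). Without that library and with the GC offset, a combination added after the values were seen, it was 0.08 (95% interval -0.01 to 0.16, edgeR adjusted p = 0.206). In that library *Tln1*, *Ilk* and *Vcl* lay within the range of the other si-*Fndc1* libraries, *Zyx* was below and *Ptk2* above them. Of 6924 genes with a mean of at least 5 FPKM, 15 (0.217%) had in this library less than 0.5 times the level of every other si-*Fndc1* library, and the count was 13 to 20 over the 10 libraries, each held against its own group. A less strict gap, with 1 library apart from the other 4 by more than 0.71 of the group's range, occurred in 7.5% of all tested genes in si-Control and 7.04% in si-*Fndc1*.

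Vinculin binds stretched talin and actin, and zyxin marks adhesions and stress fibers under tension. *Vcl* (ENSMUSG00000021823, chromosome 14 from 20979466 to 21083744, plus strand) had 63.4, 56.1, 61.3, 66.4 and 61.8 FPKM in si-Control and 61.2, 63.0, 54.3, 54.9 and 51.1 FPKM in si-*Fndc1*. Si-*Fndc1* libraries 3 to 5 were below every si-Control library and libraries 1 and 2 were among them. The log2 difference was -0.11 (95% interval -0.25 to 0.03, edgeR adjusted p = 0.201), and -0.07 with the GC offset (edgeR adjusted p = 0.325). *Ap3m1*, on the opposite strand, overlaps the end of *Vcl* over 2235 bases and had 14373 to 20373 reads in a library.

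*Zyx* (ENSMUSG00000029860, chromosome 6 from 42326564 to 42337147, plus strand) had 73.7, 80.4, 73.9, 75.8 and 73.9 FPKM in si-Control and 57.7, 81.3, 68.7, 60.4 and 74.1 FPKM in si-*Fndc1*. Its libraries spread more in si-*Fndc1* (coefficient of variation 14.2%) than in si-Control (3.77%), and the groups overlapped. The log2 difference was -0.13 (95% interval -0.32 to 0.05, edgeR adjusted p = 0.244). Leaving out si-*Fndc1* library 2, the library with the highest *Zyx*, necessarily lowered the difference, to -0.21 (edgeR adjusted p = 0.0444). *Zyx* was not called in any other fit that left out 1 library without the offset. The log2 difference was 0.06 with the GC offset over all libraries (edgeR adjusted p = 0.675). *Epha1*, on the opposite strand, overlaps *Zyx* over 1727 bases and had 603 to 940 reads in a library.

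Serum response factor, whose activity follows the state of actin, binds the CArG box. Promoters of 6 of the 10 genes were matched by symbol in RefSeq (GRCm38.p6), each 250 bases before to 50 bases after an annotated start. The box was searched by its consensus, which reads the same on both strands. It was found in *Vcl* and in *Fermt2*, and not in the windows of *Tln1*, *Zyx*, *Ilk* and *Lims1*. The 6 genes had 9 promoters, and of all 32851 promoters of this length 1.63% held the box. The members are thus counted by gene and the background by promoter. *Tln2*, *Pxn*, *Parva* and *Ptk2* had no promoter in this set. Neither *Vcl* nor *Fermt2* was called, and a link between the box and a fold change was not tested. The windows are shown 5′ to 3′ on the gene's strand with the CArG box in capitals.
Vcl, chr14:20929148-20929207, plus strand, motif 227 to 218 bases before the start: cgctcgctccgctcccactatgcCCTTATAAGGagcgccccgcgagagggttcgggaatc
Fermt2, chr14:45530235-45530294, minus strand, motif 204 to 195 bases before the start: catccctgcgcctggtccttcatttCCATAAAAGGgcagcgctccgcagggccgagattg
The match is a description of the sequence, and binding was not measured.

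Paxillin is a scaffold that FAK phosphorylates. *Pxn* (ENSMUSG00000029528, chromosome 5 from 115644735 to 115694046, plus strand) had 15.6, 14.1, 14.3, 12.9 and 12.7 FPKM in si-Control and 9.46, 11.0, 8.70, 9.92 and 11.2 FPKM in si-*Fndc1*. The groups did not overlap. The mean level fell by 27.8%. Its log2 fold change of -0.46 (SE 0.08, edgeR adjusted p = 0.00101) was the largest of the 10 genes in size. The GC offset left -0.18 (95% interval -0.37 to 0.00, edgeR adjusted p = 0.145). *Pxn* also has the highest GC content of the 10 genes.

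FAK is the tyrosine kinase that is phosphorylated when integrins bind their ligands. *Ptk2* (ENSMUSG00000022607, chromosome 15 from 73076951 to 73295061, minus strand) had 5.19, 5.25, 5.63, 5.89 and 5.39 FPKM in si-Control and 6.12, 5.69, 5.55, 5.80 and 5.74 FPKM in si-*Fndc1*. The si-*Fndc1* libraries lay in the upper part of the si-Control range or, in library 1, above it. The log2 difference was 0.09 (95% interval 0.00 to 0.18, edgeR adjusted p = 0.122). With the GC offset it was 0.17 (SE 0.04, edgeR adjusted p = 0.00899). The GC content of *Ptk2* was 48.1%, below the median of 50.5% over tested genes, and its implied length was 13140 bases. Leaving out si-Control library 4, the si-Control library with the highest *Ptk2*, necessarily raised the difference, to 0.11 (edgeR adjusted p = 0.0461). *Ptk2* was not called in any other fit that left out 1 library without the offset. A lower level of *Ptk2* in si-*Fndc1* was not seen in any of these fits.

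**Figure D2:**
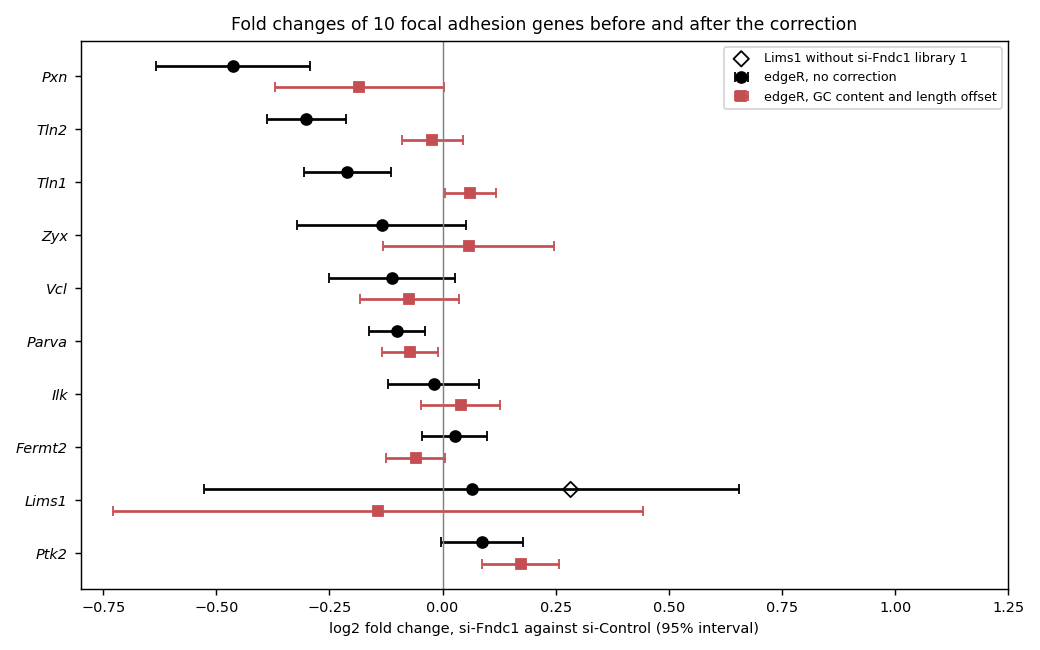
Log2 fold change of each gene, si-*Fndc1* against si-Control, with its 95% interval, from edgeR without a correction (black circles) and with the GC content and length offset (red squares). The open diamond is *Lims1* without si-*Fndc1* library 1. The intervals of *Pxn*, *Tln2*, *Tln1* and *Parva* lie below 0 without the correction, and with it *Ptk2* is the gene farthest above 0.

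**Figure D3:**
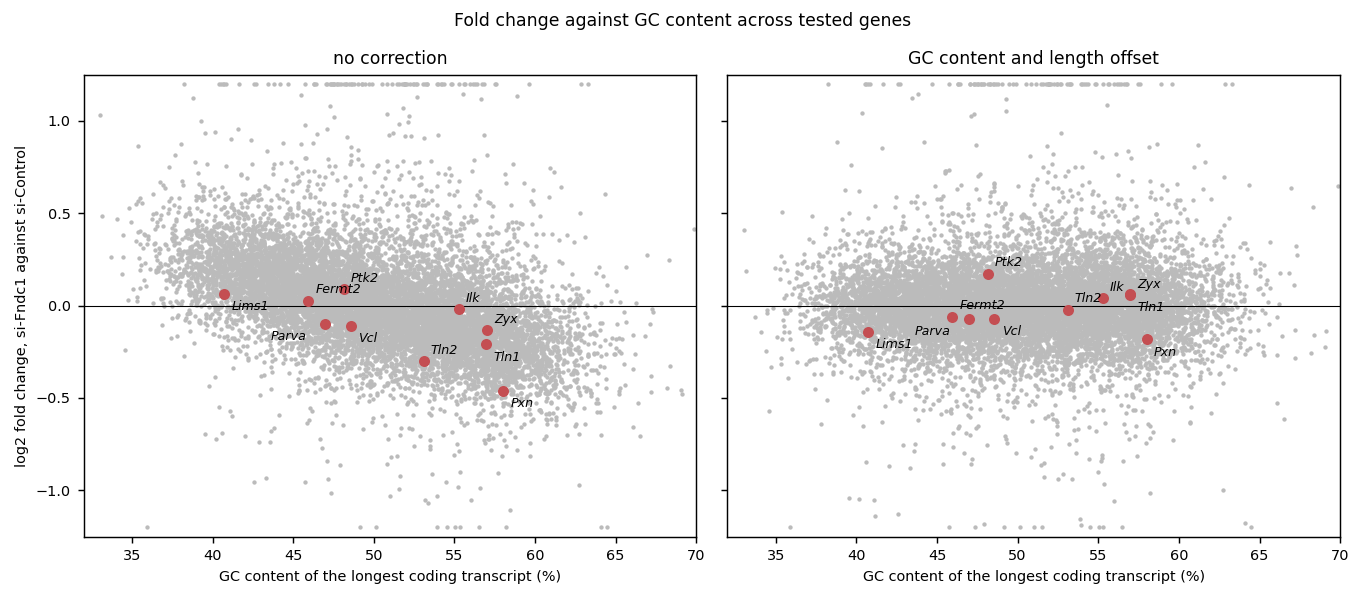
Log2 fold change against the GC content of the longest coding transcript for 11185 tested genes (grey) and the 10 focal adhesion genes (red), without (left) and with (right) the offset. Values beyond the vertical axis are drawn at its edge. The cloud falls with GC content on the left and is level on the right, and the GC-rich *Pxn*, *Tln1*, *Tln2* and *Zyx* move toward or past 0.

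By level per length in si-Control, the order ran from *Zyx* (75.5 FPKM) and *Tln1* (72.8 FPKM) over *Vcl* (61.8 FPKM), *Fermt2* (36.3 FPKM), *Ilk* (35.3 FPKM), *Lims1* (29.3 FPKM), *Parva* (16.0 FPKM) and *Pxn* (13.9 FPKM) to *Tln2* (6.58 FPKM) and *Ptk2* (5.47 FPKM). The ranges of *Zyx* and *Tln1*, of *Fermt2* and *Ilk*, and of *Parva* and *Pxn* overlapped, and the other neighbors in this order did not. In si-*Fndc1* the last pair was exchanged, with *Ptk2* at 5.78 FPKM and *Tln2* at 5.31 FPKM, and *Ptk2* was above *Tln2* in 5 of 5 libraries. The lengths implied by the counts and the FPKM values ran from 3053 bases for *Ilk* to 20416 bases for *Tln2*, and the order of genes depends on them.

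Ratios of genes within a library need no scaling between libraries, and 10 ratios were compared (two-sided exact permutation test, in which 5 against 5 allow no p-value below 0.00794). The *Ptk2*/*Pxn* ratio of FPKM, kinase to scaffold, was 0.395 ± 0.0475 in si-Control and 0.580 ± 0.0638 in si-*Fndc1* (SD, n = 5 each). The lowest si-*Fndc1* library, 0.511, was above the highest si-Control library, 0.455 (exact permutation test, p = 0.00794, 0.0265 adjusted over the 10 ratios). The difference on the log2 scale was 0.55, and 0.36 with the GC offset (exact permutation test, p = 0.0159, 0.0529 adjusted).

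*Ptk2b* encodes PYK2, the other kinase of the FAK family. Its ratio to *Ptk2* was 1.06 ± 0.0541 in si-Control and 0.814 ± 0.0570 in si-*Fndc1* (SD, n = 5 each). The groups did not overlap, from 0.972 to 1.11 and from 0.713 to 0.852 (exact permutation test, p = 0.00794, 0.0265 adjusted). The log2 difference of -0.39 was -0.31 with the GC offset (exact permutation test, p = 0.00794, 0.0397 adjusted). *Ptk2b* and *Ptk2* were thus near equal per length in si-Control, and *Ptk2* was the higher in 5 of 5 si-*Fndc1* libraries.

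The ratio of the integrin activators differed between the groups in opposite senses with and without the GC offset. *Fermt2*/*Tln1* was 0.499 ± 0.0257 in si-Control and 0.589 ± 0.0356 in si-*Fndc1* (SD, n = 5 each; exact permutation test, p = 0.00794, 0.0265 adjusted). Its log2 difference was 0.24, and -0.12 with the offset (exact permutation test, p = 0.00794, 0.0397 adjusted). *Vcl*/*Tln1* had a log2 difference of 0.10, and -0.14 with the offset (exact permutation test, p = 0.0238 and 0.0595 adjusted in both). *Tln2*/*Tln1* was 0.0904 ± 0.00175 in si-Control and 0.0849 ± 0.00377 in si-*Fndc1* (SD, n = 5 each; exact permutation test, p = 0.0397, 0.0794 adjusted).

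Within the ILK complex no ratio had a p-value under 0.05 over all libraries (exact permutation test). *Parva*/*Ilk* was 0.455 ± 0.0305 in si-Control and 0.430 ± 0.0281 in si-*Fndc1* (SD, n = 5 each; exact permutation test, p = 0.206). Its log2 difference was -0.08, and -0.11 with the GC offset (exact permutation test, p = 0.0635, 0.106 adjusted). *Lims1*/*Ilk* was 0.758 to 0.923 in si-Control. It was 0.303 in si-*Fndc1* library 1 and 0.966 to 1.11 in the other 4, above every si-Control library (exact permutation test over all libraries, p = 1). Leaving out library 1, the lowest, necessarily raised the log2 difference, to 0.30 (exact permutation test, p = 0.0159). Over all libraries the log2 difference was -0.05, and -0.31 with the GC offset (exact permutation test, p = 0.754 with the offset). The ratios *Parvb*/*Parva*, *Lims2*/*Lims1* and *Zyx*/*Vcl* had p-values of 0.556, 0.857 and 0.817 (exact permutation test).

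**Figure D4:**
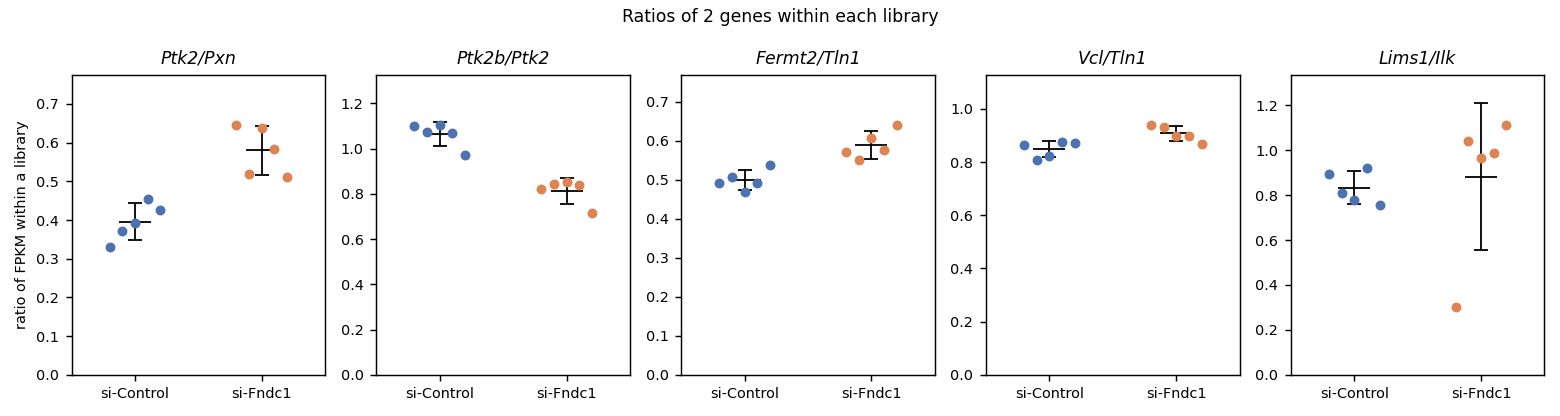
Ratio of FPKM of 2 genes within each library (points; vertical axes from 0) in si-Control and si-*Fndc1*, with the mean and SD of 5 libraries (bars). *Ptk2*/*Pxn* and *Fermt2*/*Tln1* are higher and *Ptk2b*/*Ptk2* lower in each si-*Fndc1* library, and *Lims1*/*Ilk* has 1 library at 0.303.

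A list of 12 relatives and partners of the 10 genes was examined, of which 8 were tested and 4, *Fermt1*, *Fermt3*, *Parvg* and *Lpxn*, were below 0.5 FPKM. Of the 8, 3 were lower and none was higher (edgeR; 0 higher at an unadjusted p-value under 0.05 too). Over all tested genes 17.2% were lower and 17.3% higher. *Trip6*, a LIM protein of the zyxin family, had 20.0 to 21.7 FPKM in si-Control and 12.6 to 15.0 FPKM in si-*Fndc1*. Its log2 fold change of -0.59 was -0.42 with the GC offset (edgeR adjusted p = 3.34e-05 and 0.000753). *Lpp*, another zyxin relative, had 7.31 to 7.92 FPKM in si-Control and 5.83 to 6.54 FPKM in si-*Fndc1*. Its log2 fold change was -0.30, and -0.24 with the offset (edgeR adjusted p = 0.000135 and 7.05e-05). Both zyxin relatives had lower FPKM in every si-*Fndc1* library than in any si-Control library and were called in both fits, whereas *Zyx* overlapped between the groups. *Ptk2b* had a log2 fold change of -0.30 (edgeR adjusted p = 0.00616) that the offset reduced to -0.14 (edgeR adjusted p = 0.135).

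The other 5 tested relatives were not called. *Parvb*, β-parvin, was more abundant per length than *Parva*, though it had fewer reads (9571 to 11230 against 12047 to 13919 in si-Control). *Parvb* had 29.9 ± 1.62 FPKM in si-Control and 27.2 ± 1.72 FPKM in si-*Fndc1* (SD, n = 5 each; log2 difference -0.13, edgeR adjusted p = 0.0667). With the offset the difference was 0.01, of the opposite sign (edgeR adjusted p = 0.935). *Lims2*, the gene of PINCH2, had 3.27 ± 0.300 and 2.81 ± 0.264 FPKM (SD, n = 5 each), and 0.112 times the *Lims1* level in si-Control. Its log2 difference was -0.21 (edgeR adjusted p = 0.0802), and -0.08 with the offset (edgeR adjusted p = 0.559). *Tgfb1i1*, which encodes the paxillin relative Hic-5, had 9.07 ± 0.454 and 9.23 ± 0.564 FPKM (SD, n = 5 each). The log2 difference was 0.03 (edgeR adjusted p = 0.677) and of 0.18 with the offset (edgeR adjusted p = 0.0310). *Rsu1*, a partner of PINCH1, had a log2 fold change of 0.12 (edgeR adjusted p = 0.280), which was 0.02 with the offset and 0.05 without si-Control library 5, and *Ctnna1*, the vinculin relative of cell-cell junctions, one of -0.11 (edgeR adjusted p = 0.0634).

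In a wider list of 70 genes of adhesion sites, 67 were tested. Of these 26 were lower, 10 were higher and 31 were not called (edgeR), with a median log2 fold change of -0.06. Over all tested genes 17.2% were lower and 17.3% higher. The median GC content was 52.8% in the list and 50.5% over all tested genes. With the GC offset 13 were lower and 12 higher, where 11.4% and 11.3% of all genes in that fit were. The genes with the smallest p-values among the lower ones were *Kank2* (a talin-binding protein, log2 fold change -0.29), *Bcar1* (p130Cas, a FAK substrate, -0.48) and *Flna* (filamin A, an actin crosslinker, -0.33), which were also called with the offset at -0.11, -0.22 and -0.14. Among the higher ones they were *Rap1b* (a GTPase that recruits talin, 0.34), *Fhl2* (a LIM protein, 0.38) and *Rhoa* (the GTPase of stress fibers, 0.23). With the offset *Fhl2* (0.30) and *Rhoa* (0.23) were called and *Rap1b* (0.05, adjusted p = 0.275, edgeR) was not. Of 21 integrin subunit genes 14 were tested, of which 8 were lower and 1 was higher, and with the offset 3 were lower and 0 were higher. The median GC content of these 14 genes was 52.5%, and the shares over all genes are those given above.

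A list of 17 genes of the SRF and YAP pathways, through which adhesion and actin act on transcription, had 5 lower and 1 higher gene (edgeR), and 6 lower and 2 higher genes with the offset. Of all tested genes 17.2% were lower and 17.3% higher, and 11.4% and 11.3% with the offset. *Srf*, the gene of serum response factor itself, had 17.6 ± 1.56 FPKM in si-Control and 12.5 ± 0.928 FPKM in si-*Fndc1* (SD, n = 5 each), a difference of -0.48 (edgeR adjusted p = 0.000524) and of -0.30 with the offset (edgeR adjusted p = 0.00780). *Mrtfa*, its actin-regulated coactivator, had a log2 fold change of -0.30 (edgeR adjusted p = 0.00604) and of -0.05 with the offset (edgeR adjusted p = 0.573). *Thbs1* had one of -0.21 and of -0.18 with the offset (edgeR adjusted p = 0.000643 and 0.00125). *Cnn1*, the only higher gene, had a log2 fold change of 0.26 (edgeR adjusted p = 0.0415), and of 0.22 with the offset (edgeR adjusted p = 0.107). The call of *Cnn1* stood in 8 of 19 alternative fits and was lost with a replicate block (edgeR adjusted p = 0.0631). Its CPM values overlapped between the groups.

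**Figure D5:**
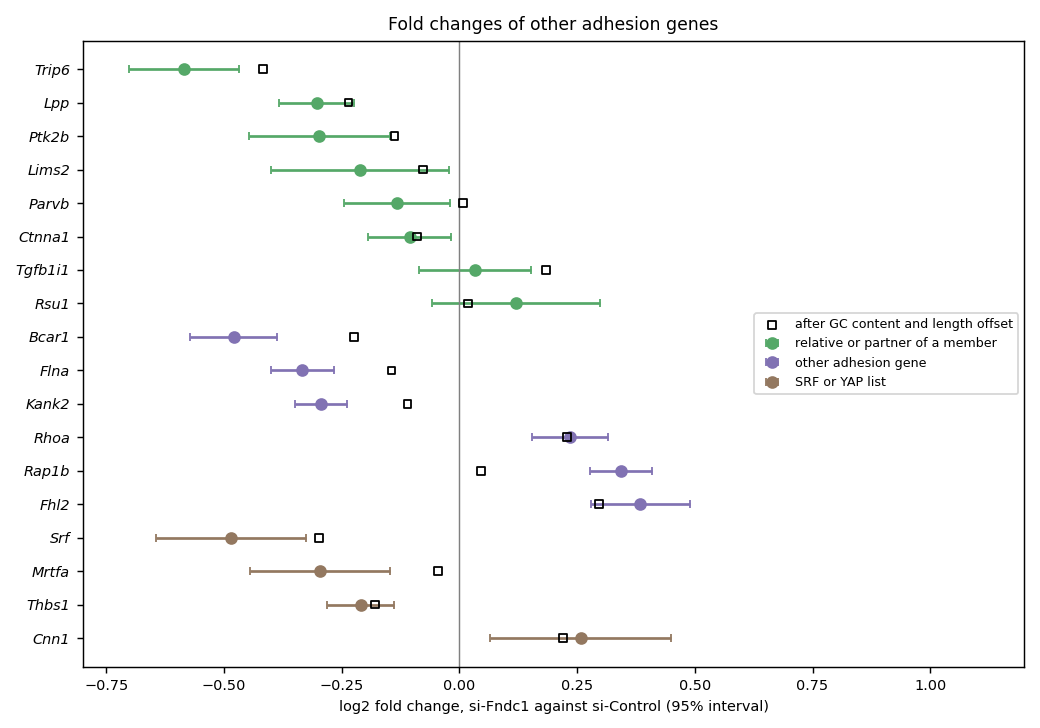
Log2 fold change, si-*Fndc1* against si-Control, with 95% intervals (filled circles), of 8 tested relatives and partners, 6 other adhesion genes and 4 genes of the SRF and YAP list, and the value with the GC content and length offset (open squares). *Trip6*, *Lpp* and *Srf* stay well below 0 with the offset, and *Rap1b* and *Mrtfa* move close to it.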

How the data were processed

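RNA-sequencing of 10 C2C12 libraries was analysed. According to the paper's methods the authors aligned reads with TopHat to mm10 and counted them with htseq-count, the series text names STAR, mm9 and another harvest time, and the submitters' processing notes name cutadapt 1.9, FastQC and GRCm39. The deposited counts are raw counts per gene, and the deposited FPKM values are the authors'. How the FPKM values were computed, and whether strand was used, is not given in the sources used here. Coordinates of genes are as the authors' table lists them, and its build is not named in it. The promoter windows of *Vcl* and *Fermt2* are in GRCm38.p6 and do not adjoin the listed starts of these genes. The listed coordinates of these genes are thus of another build than the windows. All 10 libraries were used, although the methods name 4.

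The tested genes had a mean FPKM of at least 0.5 (13548 genes). Counts were fitted in edgeR 4.0.16 (R 4.3.3; quasi-likelihood, TMM, no replicate term), and single ratios were compared by exact permutation. The GC offset was fitted per library by Huber regression on splines of GC content and of log length, each of 5 degrees of freedom. It covered 11185 genes (82.6%) with a GC content from NCBIM37 transcripts. Alternatives were DESeq2 1.42.0, limma 3.58.1 on log2(FPKM + 1), other scalings and filters, a replicate block and leaving out each library, and 4 more were added after the data were seen (the offset genes without correction, FPKM for overlap, the offset for ratios, and the offset without 1 library). The fits were also run on simulated counts. These held no trend with GC content or length that differed between libraries, so they cannot show how well the offset removes one. No pair of libraries of a group agreed within counting noise (lowest chi-square over its degrees of freedom 41.5).

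The members, lists and tests were chosen with earlier results of these data known. The named genes are all 10 members, *Fndc1*, the relatives, and the 3 called genes with the smallest p-values in each direction of the adhesion site and SRF and YAP lists. Genes overlapping a member were named by position, after their values were seen.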

Additional observations from a re-analysis of the deposited data

Results flagged for a closer look

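In groups of 5 libraries, 1 library was set apart from the other 4 (a gap of more than 0.71 of the group's range) in 12 of 86 groups of values examined, where about 1 in 20 is flagged by chance. Over all tested genes this held for 7.5% of the si-Control groups and 7.04% of the si-*Fndc1* groups. The widest gap among the 10 focal adhesion genes was that of *Lims1*, at 10.6 FPKM in si-*Fndc1* library 1, which also set apart the ratios *Lims1*/*Ilk* (0.303) and *Lims2*/*Lims1* (0.296) of that library. *Tln2* was low in si-Control library 2 (6.26 FPKM) and *Ilk* in si-*Fndc1* library 5 (32.2 FPKM). *Lpxn* was high in si-Control library 2 (0.237 FPKM), as was *Rap1b* (53.1 FPKM), and the *Zyx*/*Vcl* ratio was 1.43 there. The *Tln2*/*Tln1* ratio was high in si-*Fndc1* library 3 (0.0914) and the *Lims2*/*Lims1* ratio in si-Control library 3 (0.132). The *Ptk2b*/*Ptk2* ratio was low in library 5 of both groups (0.972 in si-Control and 0.713 in si-*Fndc1*).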

How the results depend on the processing

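Across the alternatives tried, *Pxn*, *Tln1*, *Tln2* and *Parva* were lower and called in every fit that left out 1 library and under DESeq2, its size factors in edgeR, library totals, both filters and limma, and the median of all genes moved by less than 0.1 on the log2 scale. On the 11185 genes with a GC content, before the offset, the same 4 calls stood and 4244 genes were called, against 4663 of all 13548. The offset itself moved the log2 fold changes to 0.061 for *Tln1*, -0.023 for *Tln2*, -0.0595 for *Fermt2*, 0.0401 for *Ilk*, -0.14 for *Lims1*, -0.072 for *Parva*, 0.058 for *Zyx*, -0.18 for *Pxn*, 0.17 for *Ptk2* and 0.0069 for *Parvb*. On those genes it cut the called ones from 4244 to 2537 (1259 higher, 1278 lower), with 1 member higher and 0 lower, 1 relative higher, 13 adhesion site genes lower, integrins at 0 higher and 3 lower, and 2 genes of the SRF and YAP list higher. With it the ratios' log2 differences were -0.12 for *Fermt2*/*Tln1*, -0.14 for *Vcl*/*Tln1*, -0.084 for *Tln2*/*Tln1*, 0.12 for *Zyx*/*Vcl*, 0.078 for *Parvb*/*Parva* and 0.19 for *Lims2*/*Lims1*.

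The replicate numbers did not pair the libraries: the deviations of same-numbered libraries correlated at -0.0427 to 0.0548, and 1 of 5 numbers matched its own best. With the replicate block 3572 genes were called, *Lims1* was at -0.043 and *Parva* at -0.10 (edgeR adjusted p = 0.0846), and integrins had 5 lower and the SRF and YAP list 0 higher. The replicate block with the offset left 1645 genes (833 higher, 812 lower), 1 member higher and 0 lower, 7 adhesion site genes lower, integrins at 0 higher and 2 lower and the SRF and YAP list at 0 higher and 3 lower. Its log2 fold changes were 0.061 for *Tln1*, -0.023 for *Tln2*, -0.059 for *Fermt2*, 0.0403 for *Ilk*, -0.25 for *Lims1*, -0.072 for *Parva*, 0.048 for *Zyx*, -0.18 for *Pxn*, 0.17 for *Ptk2* and 0.0064 for *Parvb*. Limma gave -0.015 for *Fermt2*, -0.087 for *Lims1* and 0 higher integrins. The SRF and YAP list had 2 higher genes in DESeq2 and 0 both without the filter and at a mean of at least 5 FPKM.

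Leaving out each library in turn, *Ilk* ran from -0.048 to 0.0081, the last without si-*Fndc1* library 5, *Lims1* from -0.014 without si-*Fndc1* library 2 to 0.28 without library 1, *Zyx* from -0.21 to -0.078 and *Ptk2* from 0.068 to 0.11. Members called as higher ran from 0 to 1, SRF and YAP genes called as higher from 0 to 2, relatives called as lower from 3 to 5 and integrins from 5 to 8. Log2 differences ran from -0.12 to -0.078 for *Tln2*/*Tln1*, from -0.17 to 0.30 for *Lims1*/*Ilk*, from -0.10 to 0.054 for *Zyx*/*Vcl* (0.025 without si-Control library 2 and 0.054 without si-*Fndc1* library 1) and from -0.53 to -0.021 for *Lims2*/*Lims1*. The cause was not tested for these changes. At these depths the spread between libraries, not counting error, limits the members.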
